A study of Caenorhabditis elegans with 2 samples.

Results

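Cytochromes P450, UDP-glycosyltransferases and glutathione transferases are enzyme families of small-molecule metabolism, and their genes carry the symbols cyp, ugt and gst in *Caenorhabditis elegans*. The members were all genes with one of these symbols and reads in at least 1 library, which gave 72 genes of the 8730 with reads, namely 22 cyp, 19 ugt and 31 gst genes. The annotation holds 185 protein-coding genes with these symbols, 74 cyp, 67 ugt and 44 gst, and the other 113 were not analysed here. A listed sequence was thus present for 29.7% of cyp, 28.4% of ugt and 70.5% of gst genes, against 43.2% of all protein-coding genes. Of the 72 members, 71 were listed in the mutant, 68 in the wild type and 67 in both.

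mRNA of whole young adults was sequenced from KU25, a strain with the pmk-1(km25) deletion on chromosome IV, and from the wild type N2 Bristol. The gene encodes a stress-activated kinase of the p38 type, and both strains were raised at 20 °C on *Escherichia coli* OP50 and then kept at 35 °C for 5 h. Each genotype had 1 library, so there is no replicate error, no test of genotype was made, and the values describe these 2 libraries of heated worms; unheated worms were not analysed here. The libraries held 5.23 M uniquely mapped reads in KU25 and 5.78 M in N2. Ratios are KU25 over N2 in CPM (reads scaled to a library of 1000000), with an exact 95% interval that covers counting error only. pmk-1 itself was not analysed here, so the deletion was not checked in the transcript.

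Cytochromes P450 are haem enzymes that oxidise lipids, steroids and foreign compounds, and most draw electrons from a shared reductase. The UDP-glycosyltransferases then attach a sugar and the glutathione transferases attach glutathione, which makes the products more soluble. In the worm many of these genes are expressed in the intestine, and PMK-1 is known to phosphorylate SKN-1, a transcription factor that induces glutathione transferase genes such as gst-4 under oxidative stress. Some P450s and transferases have duties outside detoxification, in eggshell formation, eicosanoid synthesis or amino acid breakdown.

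Most members had a higher CPM in the KU25 library, a direction that turns for most of them with a scaling on markers of the body tissues, and 1 glycosyltransferase gene, ugt-44, was many-fold lower there with each of the 4 scalings run. Across the members 59 of 72 had a higher CPM in KU25 and 13 a lower one, where 50.2% of all genes with reads had a higher CPM in KU25. Intervals lay wholly above 1 for 35 members and wholly below 1 for 5, beside 26.3% and 33% of all genes. To be called, a gene needed 50 reads or more in KU25 or N2, a difference of 2-fold or more, and an interval without 1. By that rule 14 members were higher and 1 was lower out of 32 at the level of 50 reads, beside 17.6% and 1.75% of the 5197 genes at that level (10.5% and 1.04% of all genes with reads). Of those 32 members, 10 reached the level through KU25 reads alone and 1 through N2 reads alone, so the level itself favours higher ratios. Among the 22 members with at least 50 reads in N2, 8 were higher and 1 was lower, beside 9.05% and 1.98% of the 4598 genes with as many N2 reads. The median log2 ratio over all 72 members, with a prior of 0.5 reads, was 0.86, against 0.01 over all 8730 genes.

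These directions depend on how the libraries are scaled, and most markers of the body tissues, 32 of the 39 with reads, also had a higher CPM in KU25. The 13 intestine markers, 12 of them with reads, summed to 8594 CPM in KU25 and 4479 CPM in N2, with a median log2 ratio of 0.83; ges-1 had no listed sequence and cpr-6 had 0 reads in KU25. The 39 somatic markers with reads out of 48 (intestine, body wall muscle, pharynx, neurons and hypodermis) summed to 22040 CPM in KU25 and 10620 CPM in N2. Their lists did not all lie one way: the 5 hypodermis markers with reads had a median log2 ratio of -0.3. Most of their reads came from col-19, with 26779 in KU25 and 13826 in N2, whereas lin-26 had 798 reads in KU25 and 1639 in N2 (1.86-fold lower, 1.71 to 2.02). Of the intestine markers, elt-2, pho-1 and cpr-6 had a lower CPM in KU25, with intervals that include 1. Among the defining muscle genes, unc-54 and myo-3 had no listed sequence. The 13 markers of the oogenic germline, 10 of them with reads, lay the other way at 4243 CPM in KU25 and 7598 CPM in N2, and their intervals were all below 1. The sperm list, with reads for 9 of its 10 genes, summed to 270.7 CPM in KU25 and 38 CPM in N2. When the 27 somatic markers at the level were set to a median log2 ratio of 0, every log2 ratio fell by 1.19, 26 members had a ratio above 1 and 46 below 1, and the calls became 1 higher (gst-10) and 5 lower (cyp-31A2, cyp-44A1, ugt-44, ugt-58 and ugt-62) out of the 32 at the level. With the same scaling 5.91% of all genes at the level were higher and 68.5% lower. In whole worms, fewer cells of a type and less RNA per cell cannot be told apart, and the part of tissue proportions in the values below was not tested.

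**Figure D1:**
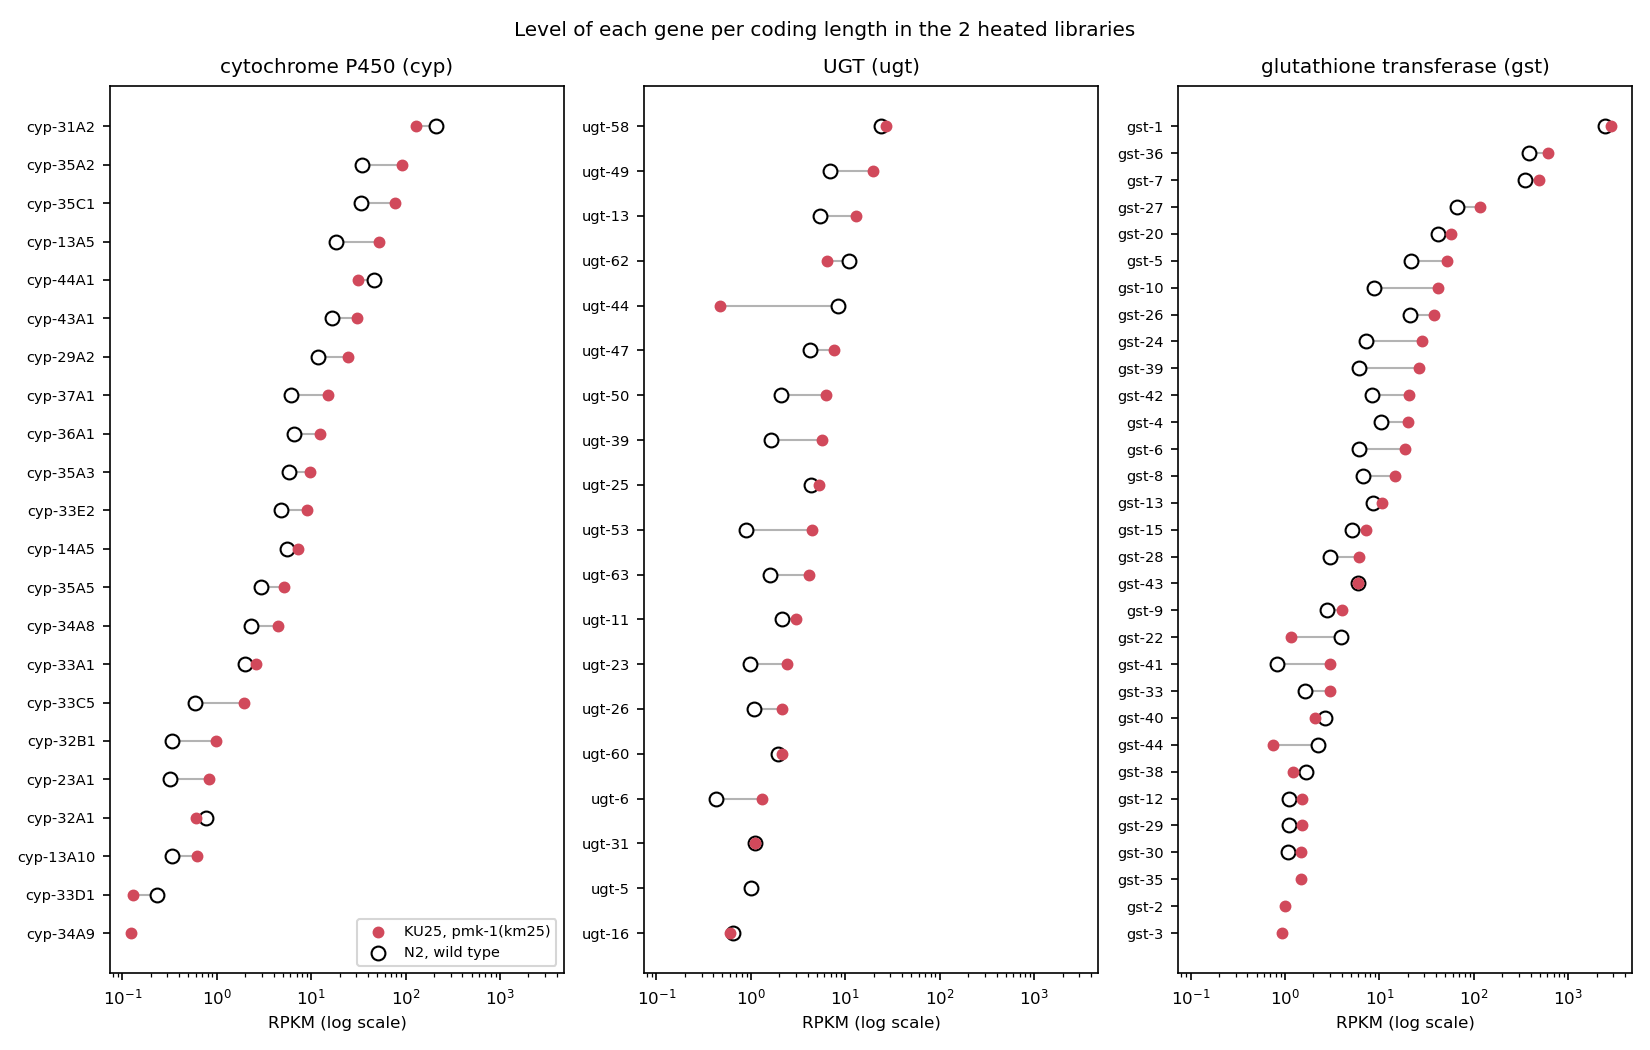
Level of each of the 72 genes in RPKM (reads of a gene scaled to its coding length and to the library total, log axis), with filled points for the KU25 library and open points for the N2 library, 1 panel per family; a gene with 0 reads in a library has no point there. gst-1 stands at the top at 2861 RPKM in KU25 and 2467 RPKM in N2, and ugt-44 shows the widest gap, at 0.469 RPKM in KU25 and 8.28 RPKM in N2.

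Per coding length, the 3 families differed widely in level, as the plot of levels shows. Among gst genes with reads, levels ran between 0.75 and 2861 RPKM in KU25 and between 0.819 and 2467 RPKM in N2. The cyp genes ran between 0.123 and 128.6 RPKM in KU25 and between 0.234 and 209.6 RPKM in N2. The ugt genes were low, with a highest value of 26.7 RPKM in KU25 and 23.6 RPKM in N2. A level of 10 RPKM was reached by 15 gst, 9 cyp and 3 ugt genes in KU25, and by 8 gst, 7 cyp and 2 ugt genes in N2. The median over all genes with reads was 19.7 RPKM in KU25 and 15.7 RPKM in N2, so most members were below the typical listed gene.

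In the P450 family, reads shifted between its members more than its total did. Together the 22 cyp genes had 3966 reads in KU25 and 3536 in N2, a ratio of 1.24 (1.19 to 1.3), and without cyp-31A2 the ratio was 1.89 (1.78 to 2.01). Of the 12 cyp genes at the level, 5 were higher in KU25 and none lower. At the same level 17.6% of all genes were higher and 1.75% lower. cyp-31A2, the most abundant P450 gene in both libraries, took 25.2% of the family's reads in KU25 (exact interval 23.9 to 26.6) and 51% in N2 (49.4 to 52.7). The family's median log2 ratio over all 22 genes was 0.91 (0.9 with the gene at 0 reads left out), and -0.29 when somatic markers set the scale.

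cyp-31A2 is known for a part, together with the reductase EMB-8, in making the lipid layer of the eggshell. It had 1001 reads (128.6 RPKM) in KU25 and 1804 reads (209.6 RPKM) in N2, and was 1.63-fold lower in KU25 (1.51 to 1.76). Its ratio of 0.614 was just above those of the 10 oogenic germline markers with reads, which ran between 0.497 for egg-3 and 0.604 for gld-1 and pos-1; the part of germline RNA in it was not tested. The close paralog cyp-31A3 was not analysed here, and since only uniquely mapped reads were counted the share of each copy is uncertain. cyp-44A1 (ZK177.5), the worm's P450 of the mitochondrial type, had 242 reads in KU25 and 398 in N2, a 1.49-fold lower level (1.26 to 1.75). Its coding sequence overlaps that of npp-24 on the same strand over 1.64% of its length, and npp-24 had 407 reads in KU25 and 762 in N2. Reads of cyp-31A2 per read of cyp-44A1 were 4.14 in KU25 and 4.53 in N2, a ratio of 0.913 whose interval (0.762 to 1.09) includes 1.

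The cyp-35 genes are strongly inducible by foreign compounds, are expressed in the intestine and are linked to fat storage. They are close paralogs, and how the authors' counting of unique matches divided reads between them is uncertain. All 4 with reads had intervals above 1, with 1420 reads in KU25 and 662 in N2 in sum, a ratio of 2.37 (2.16 to 2.61). cyp-35A2 had 709 reads (91.3 RPKM) in KU25 and 300 reads (34.9 RPKM) in N2, and was 2.61-fold higher (2.28 to 3). cyp-35C1 had 596 reads (76.6 RPKM) in KU25 and 287 reads (33.3 RPKM) in N2, and was 2.3-fold higher (1.99 to 2.65). cyp-35A3, with 75 reads in KU25 and 50 in N2 (1.66, 1.14 to 2.42), and cyp-35A5, with 40 and 25 (1.77, 1.05 to 3.04), had smaller ratios. Within the libraries, cyp-35A2 had 9.45 reads per read of cyp-35A3 in KU25 and 6 in N2. In N2, cyp-35A2 and cyp-35C1 could not be told apart in level, with overlapping counting intervals of 31.1 to 39.1 and 29.6 to 37.4 RPKM. In KU25 the intervals, 84.7 to 98.3 and 70.6 to 83 RPKM, did not overlap. cyp-35A2 ranked above cyp-35C1 in both libraries, and whether their proportion differed between the libraries was not tested.

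cyp-13A5 belongs to a group of P450s related to the mammalian CYP3 drug-metabolising enzymes, and it had the largest ratio among cyp genes at the level. It had 428 reads (52.4 RPKM) in KU25 and 165 reads (18.2 RPKM) in N2, and was 2.87-fold higher (2.39 to 3.45). Its neighbours in the cyp-13A cluster of chromosome II were not analysed here, and cyp-13A10, elsewhere on that chromosome, had 5 reads in KU25 and 3 in N2. cyp-37A1 had 120 reads in KU25 and 54 in N2 (2.46, 1.77 to 3.45), and cyp-29A2 had 192 and 102 (2.08, 1.63 to 2.67). Both were higher by the rule, and the direction of cyp-29A2 turned with the scaling on somatic markers, to a log2 ratio of -0.14.

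The remaining cyp genes at the level had ratios between 1.32 and 1.89, under the 2-fold limit. cyp-43A1 had 245 reads in KU25 and 147 in N2 (1.84, 1.5 to 2.28). cyp-36A1, known from the hypoxia response where it acts downstream of HIF-1 on behaviour, had 95 reads in KU25 and 56 in N2 (1.88, 1.33 to 2.66). cyp-33E2, which makes eicosanoids and influences pharyngeal pumping, had 70 reads in KU25 and 41 in N2 (1.89, 1.27 to 2.85). cyp-14A5 had 56 reads in KU25 and 47 in N2, with an interval that includes 1 (1.32, 0.878 to 1.98). With the scaling on somatic markers these 4 genes had log2 ratios between -0.8 and -0.28.

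The 10 cyp genes below the level held between 1 and 40 reads in the library where they were more abundant. Intervals above 1 were found for cyp-35A5 and for cyp-34A8 (35 reads in KU25 and 20 in N2, ratio 1.94, 1.09 to 3.54) and cyp-33C5 (15 and 5, ratio 3.32, 1.15 to 11.7). cyp-33A1 had 20 reads in KU25 and 17 in N2. cyp-13A10, cyp-23A1, cyp-32A1, cyp-32B1 and cyp-33D1 had 1 to 8 reads in KU25 and 2 to 7 in N2, and cyp-34A9 had 1 read in KU25 and 0 in N2. Their intervals include 1, so a difference was not detectable at this depth.

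**Figure D2:**
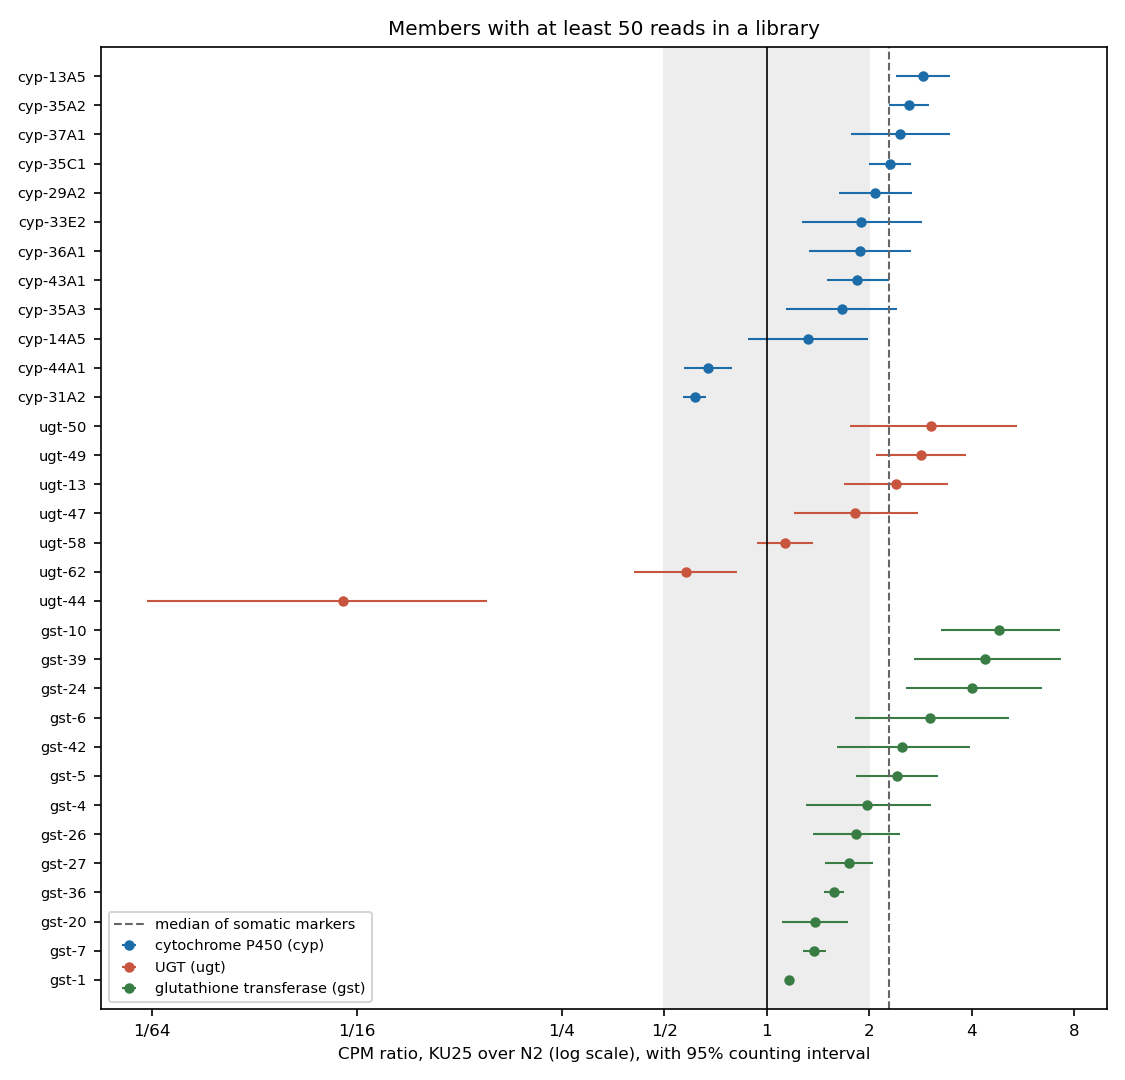
CPM ratio of KU25 over N2 (log axis) for the 32 genes that reach 50 reads in KU25 or N2, with exact 95% counting intervals, grouped by family; the grey band spans ratios between 1/2 and 2, and the dashed line is the median ratio of the somatic markers. Only ugt-44 lies below the band, gst-10, gst-39 and gst-24 lie farthest above it, and genes left of the dashed line have a ratio below 1 when somatic markers set the scale, where 5 of the 32 are called lower.

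Among the glycosyltransferases, 3 genes were higher in KU25 and ugt-44 was lower, out of 7 at the level. Over all genes at the level, 17.6% were higher and 1.75% lower. The 19 ugt genes had 931 reads in KU25 and 723 in N2, a ratio of 1.42 (1.29 to 1.57), and 0.624 when somatic markers set the scale. Their median log2 ratio was 0.85 (0.91 without ugt-5, which had 1 read in N2 and 0 in KU25), and -0.34 with that scaling. Their spread was the widest of the 3 families on the lower side, with log2 ratios between -3.98 and 2.25.

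ugt-44 (F01D4.2, chromosome IV) had 4 reads (0.469 RPKM) in KU25 and 78 reads (8.28 RPKM) in N2. It was 17.6-fold lower in KU25 (6.62 to 66.3), and its log2 ratio was below 0 with each of the 4 scalings, between -3.89 and -5.17. Reads covered 12% of its coding sequence in KU25 and 85.3% in N2. In N2 it was the third of the ugt genes by level, with a counting interval (6.54 to 10.3 RPKM) that overlaps those of ugt-62 and ugt-49, while in KU25 it was the lowest of the 18 with reads. Set against ugt-49 within each library, a pairing chosen after the values were seen, ugt-44 had 0.0248 reads per read of ugt-49 in KU25 and 1.24 in N2. The adjacent ugt-43 was not analysed here.

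ugt-62 was the other ugt gene at the level with an interval below 1, with 53 reads in KU25 and 101 in N2, a 1.72-fold lower level (1.22 to 2.45) that misses the 2-fold limit. ugt-58, the most abundant ugt gene in both libraries, had 224 reads (26.7 RPKM) in KU25 and 219 reads (23.6 RPKM) in N2, a ratio of 1.13 whose interval (0.935 to 1.37) includes 1. ugt-49 had 161 reads in KU25 and 63 in N2 and was 2.83-fold higher (2.1 to 3.84). ugt-13 had 108 reads in KU25 and 50 in N2 (2.39, 1.69 to 3.41), and ugt-50 had 52 and 19 (3.03, 1.76 to 5.42). These 3 genes kept log2 ratios above 0 with the scaling on somatic markers, at 0.3, 0.06 and 0.38. ugt-50 reached the level through KU25 only, and 14.2% of its coding bases overlap nhr-26 on the opposite strand, so its reads are uncertain because the labels do not state a stranded library. ugt-47 had 64 reads in KU25 and 39 in N2 (1.81, 1.2 to 2.78), with 4.23% of its coding bases under the antisense gene srd-49.

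Of the 12 ugt genes below the level, 4 had intervals above 1. ugt-53 had 36 reads in KU25 and 8 in N2, a ratio of 4.98 (2.27 to 12.4), which is the largest among ugt genes. ugt-39 had 47 and 15 reads (3.47, 1.9 to 6.67), just below the limit of 50, and ugt-50 with 52 reads in KU25 stood just above it. ugt-63 had 33 and 14 reads (2.61, 1.36 to 5.27), and ugt-23 had 20 and 9 (2.46, 1.07 to 6.13). Reads covered 30% of the ugt-39 coding sequence in KU25 and 21.5% in N2. For ugt-23 the shares were 20% and 14.6%, so the ratios of ugt-39 and ugt-23 rest on a small part of the gene. For the other 8 the intervals include 1: ugt-25 had 44 reads in KU25 and 40 in N2, ugt-11 had 25 and 20, ugt-26 had 18 and 10, and ugt-60 had 17 in each. ugt-6, ugt-16 and ugt-31 had 5 to 11 reads in KU25 and 4 to 10 in N2, and ugt-5 was at or under 1 read.

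In the glutathione transferase family, the abundant genes had modest ratios and several scarcer genes had large ones. The 31 gst genes had 14559 reads in KU25 and 12508 in N2, a ratio of 1.29 (1.26 to 1.32), or 1.61 (1.54 to 1.68) without gst-1. Of 13 at the level, 6 were higher in KU25 and none lower, beside 17.6% and 1.75% of all genes at the level. KU25 reads alone brought 6 of the 13 to the level. Of the 7 gst genes with at least 50 reads in N2, 1 was higher, gst-5 (14.3%). Over all genes with as many N2 reads, 9.05% were higher. The median log2 ratio over all 31 was 0.8, or 0.66 with gst-35 at its bound and gst-2 and gst-3 left out, and it was -0.39 with the scaling on somatic markers.

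gst-1 (R107.7), the worm counterpart of the mammalian pi class, took 64.5% of gst reads in KU25 (63.7 to 65.2) and 71.5% in N2 (70.7 to 72.3). It had 9384 reads (2861 RPKM) in KU25 and 8949 reads (2467 RPKM) in N2, a ratio of 1.16 (1.13 to 1.19). gst-36 followed with 1995 reads in KU25 and 1400 in N2 (1.58, 1.47 to 1.69), and gst-7 with 1577 and 1265 (1.38, 1.28 to 1.49). gst-27 had 381 reads in KU25 and 242 in N2 (1.74, 1.48 to 2.05), gst-20 had 187 and 149 (1.39, 1.11 to 1.73), and gst-26 had 126 and 76 (1.83, 1.37 to 2.47). The 5 genes with the highest level were the same in both libraries and in the same order, gst-1, gst-36, gst-7, gst-27 and gst-20. In KU25 the counting intervals of gst-20 (49.4 to 66.1 RPKM) and the next gene, gst-5 (44.6 to 60.5 RPKM), overlap.

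gst-10, which in the worm conjugates the lipid peroxidation product 4-hydroxynonenal, had the largest ratio among members at the level, which it reached through KU25 reads alone, as did gst-6, gst-24, gst-39 and gst-42. It had 139 reads (42 RPKM) in KU25 and 32 reads (8.74 RPKM) in N2, and was 4.8-fold higher (3.25 to 7.29). Its log2 ratio of 2.25 stayed above 0 with each of the 4 scalings, and with the scaling on somatic markers it was 1.06, the 1 member still called higher. gst-5, which acts on the same product, had 170 reads in KU25 and 78 in N2 and was 2.41-fold higher (1.83 to 3.19). gst-39 had 87 reads in KU25 and 22 in N2 (4.37, 2.71 to 7.33), gst-24 had 94 and 26 (4, 2.57 to 6.43), and gst-6 had 60 and 22 (3.02, 1.82 to 5.16). gst-42, whose mammalian counterpart is the maleylacetoacetate isomerase of tyrosine breakdown, had 70 reads in KU25 and 31 in N2 (2.5, 1.61 to 3.94). Reads covered 94.9% of the gst-24 coding sequence in KU25 and 71.3% in N2. For gst-10 the covered share was 69.2% in KU25 and 66.8% in N2. gst-5, gst-6, gst-24, gst-39 and gst-42 kept log2 ratios above 0 with the scaling on somatic markers, between 0.07 and 0.91, but were no longer called.

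gst-4, the standard reporter of SKN-1 activity, had 66 reads (20.2 RPKM) in KU25 and 37 reads (10.3 RPKM) in N2. Its ratio of 1.97 (1.3 to 3.04) misses the 2-fold limit with library totals, passes it with TMM and median-of-ratios factors, and falls below 1 with the scaling on somatic markers (log2 ratio -0.22). Its coding sequence overlaps dhs-12 on the same strand over 10.5% of its length, and dhs-12 had 271 reads in KU25 and 476 in N2, so the shared reads are uncertain. gst-2 and gst-3, which lie beside it, had 3 reads each in KU25 and 0 in N2, at the limit of 3 reads that a count of 0 allows.

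The 18 gst genes below the level held at most 47 reads, and 11 of them at most 10. gst-8, which also acts on 4-hydroxynonenal, stood just under the limit with 47 reads in KU25 and 24 in N2 (2.17, 1.3 to 3.7). gst-35 had 5 reads in KU25 and 0 in N2, a ratio of 1.84 when the 0 is set to 3 reads, and the exact interval has its lower end at 1.01. gst-22 lay the other way, with 4 reads in KU25 and 15 in N2, 3.39-fold lower (1.08 to 14). gst-44, with 3 reads in KU25 and 10 in N2, had an interval that includes 1 (0.332, 0.0587 to 1.29). gst-13, gst-15, gst-28 and gst-43 had 20 to 35 reads in KU25 and 11 to 31 in N2, and gst-43 had a ratio of 1.01 (0.521 to 1.93). gst-9, gst-12, gst-29, gst-30, gst-33, gst-38, gst-40 and gst-41 had 4 to 13 reads in KU25 and 3 to 10 in N2, and their intervals include 1.

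**Figure D3:**
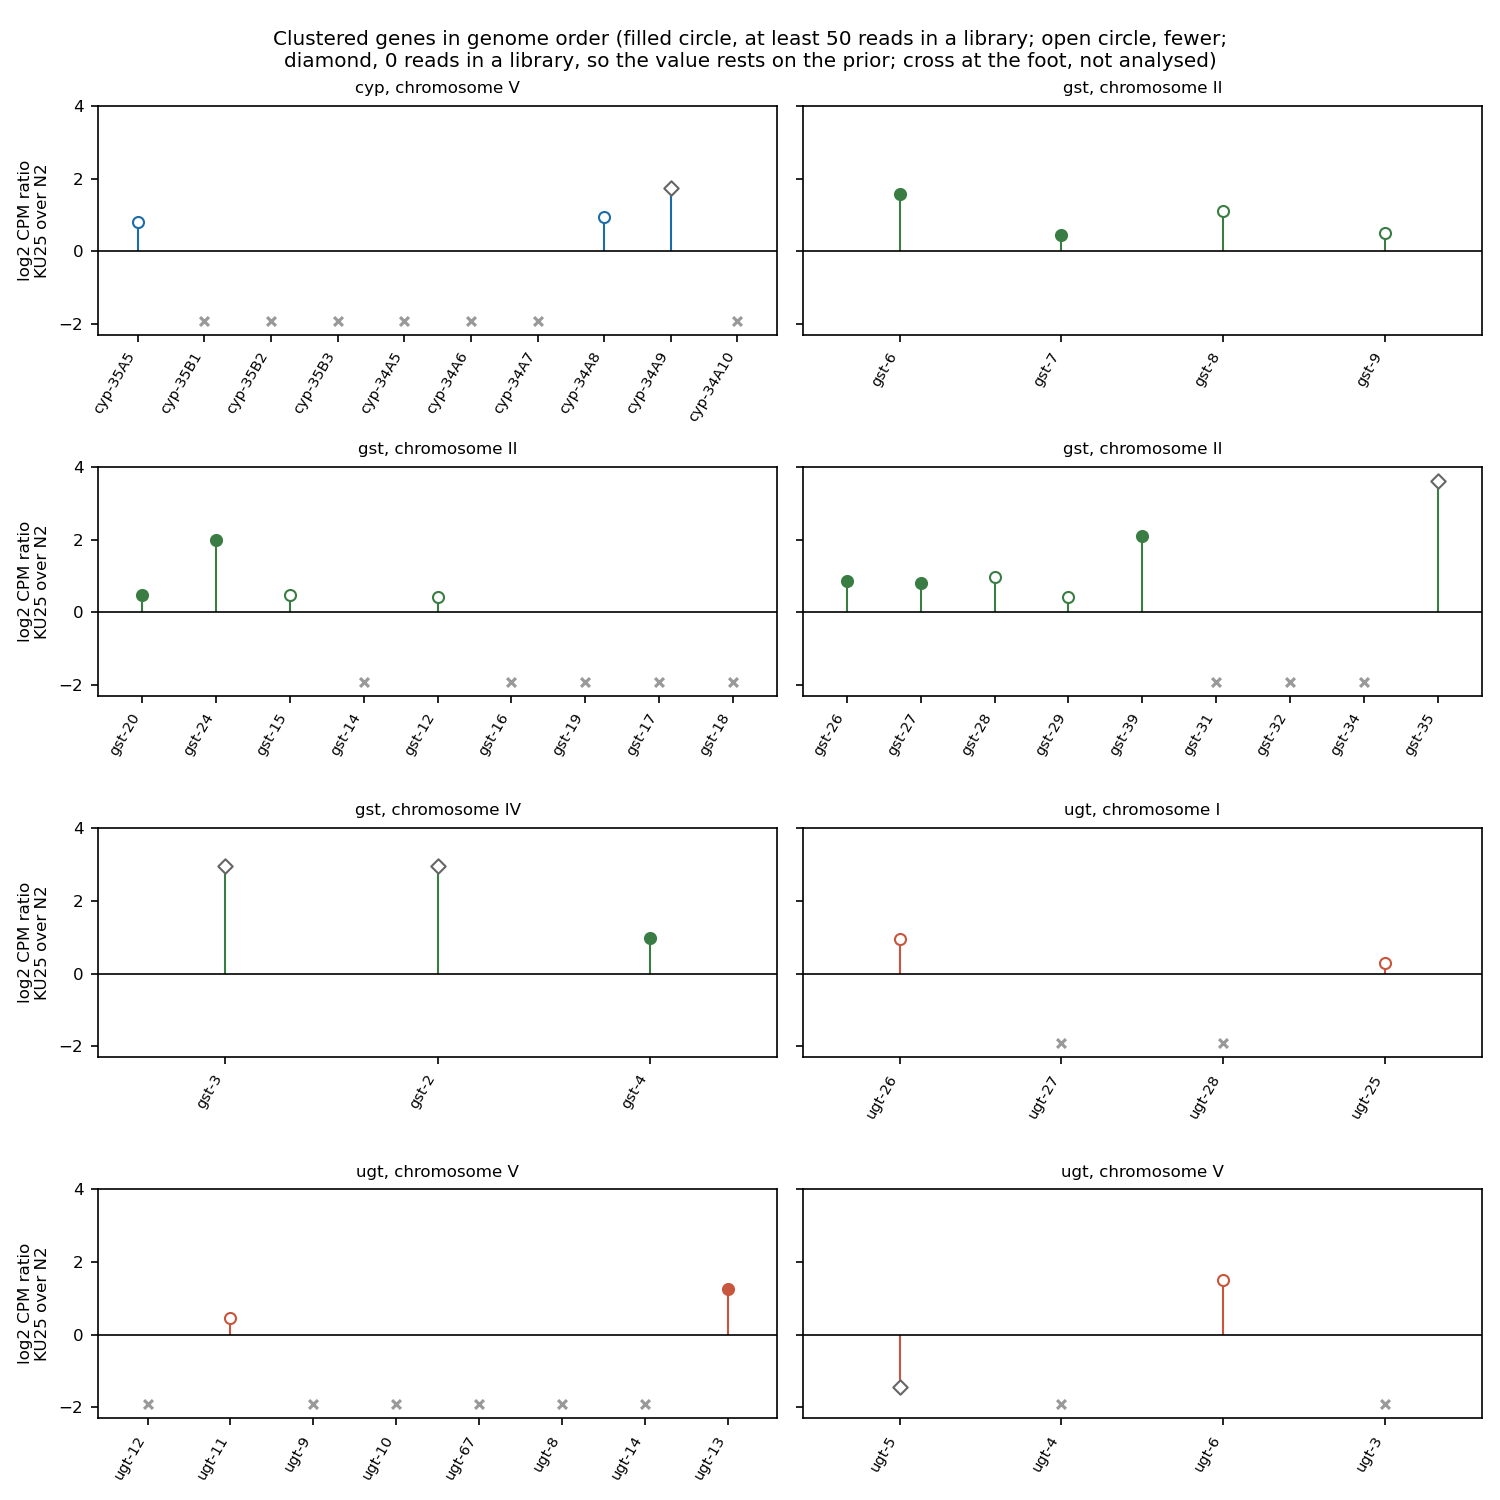
log2 CPM ratio (KU25 over N2, prior of 0.5 reads) of members of the 8 gene clusters with at least 2 analysed genes, drawn in genome order along each cluster and not to scale. Filled circles have at least 50 reads in a library, open circles fewer, diamonds 0 reads in a library, and crosses mark genes not analysed; gst-6, gst-24 and gst-39 are the highest filled circles of their clusters, and the diamond of gst-35, which rests on the prior, lies above gst-39.

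Many of these genes lie in clusters, here taken as genes of 1 family with at most 3 other protein-coding genes between them. By the annotation 107 of the 185 annotated genes lay in 26 such clusters, and 36 of the 72 members did. Within the gst clusters of chromosome II, the genes with large ratios can be set against a neighbour in the same library. gst-6, gst-24 and gst-39 were picked for their ratios and reached 50 reads through KU25 alone, so the differences that follow are a description. In the cluster of gst-6, gst-7, gst-8 and gst-9, ratios ran between 1.38 for gst-7 and 3.02 for gst-6, and gst-6 had 0.038 reads per read of gst-7 in KU25 and 0.0174 in N2, a 2.19-fold difference (1.31 to 3.77). In the cluster that holds gst-20 and gst-24, gst-24 had 0.503 reads per read of gst-20 in KU25 and 0.174 in N2, a 2.87-fold difference (1.74 to 4.87). In the cluster that holds gst-26, gst-27 and gst-39, gst-39 had 0.228 reads per read of gst-27 in KU25 and 0.0909 in N2, a 2.51-fold difference (1.51 to 4.33). The comparison within a library does not depend on scaling. All 17 gst genes of chromosome II had a ratio above 1 or, for gst-35, 0 reads in N2, with 2841 reads in KU25 and 1987 in N2 in sum (1.58, 1.49 to 1.68). Over all genes of chromosome II with reads, 799 of 1641 had a higher CPM in KU25, with a pooled ratio of 0.885 (0.882 to 0.888). With the scaling on somatic markers the direction of these gst genes turned for all but gst-5, gst-6, gst-24, gst-39 and gst-35. The value of gst-35 rests on the prior.

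Chromosome V held 29 members, more than any other, followed by chromosome II with 23. Summed over the 10 ugt genes of chromosome V, reads were 490 in KU25 and 220 in N2 (2.46, 2.1 to 2.9), and over its 13 cyp genes they were 1753 and 865 (2.24, 2.06 to 2.43). All genes of chromosome V with reads had a median log2 ratio of 0.19, and the members on it 0.94. All genes of the X chromosome had a median of 0.69 and its 5 members 1.25.

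**Figure D4:**
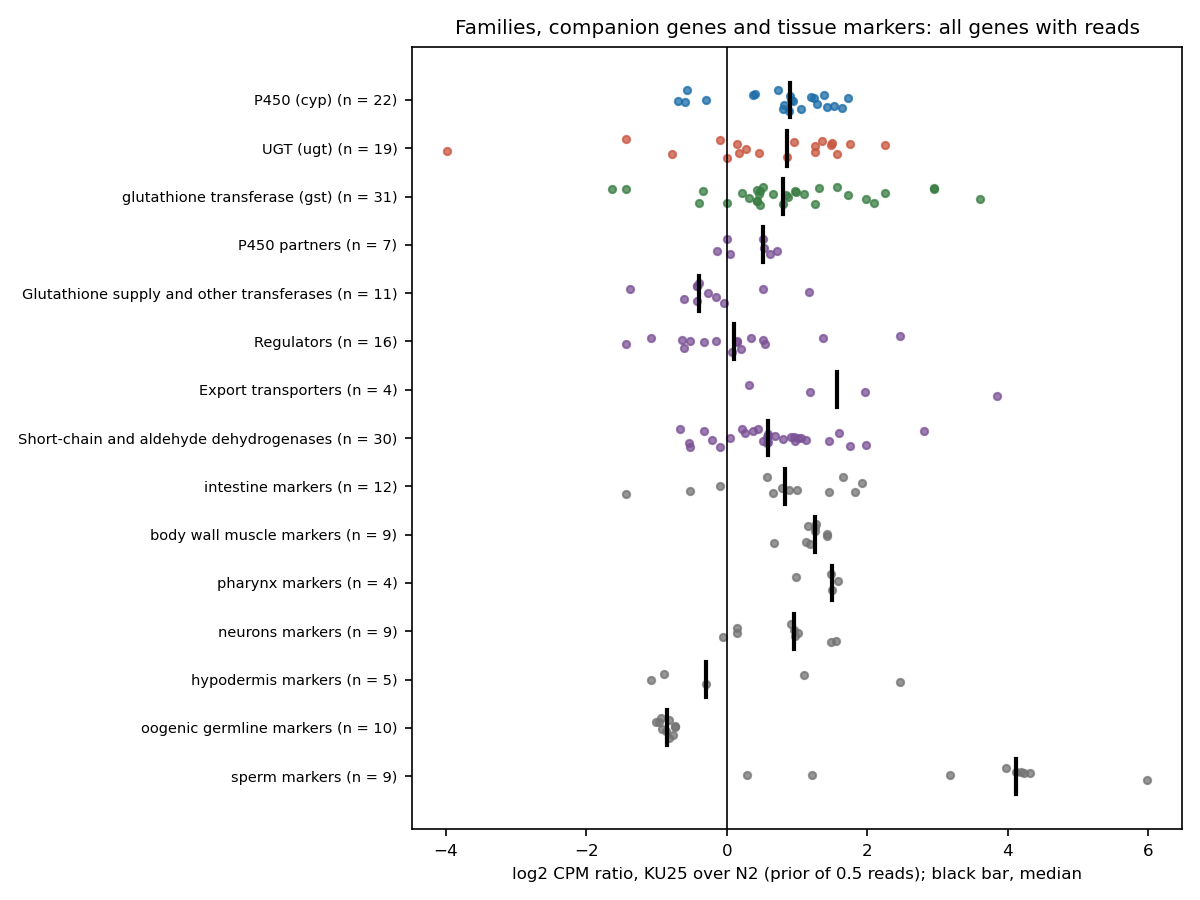
log2 CPM ratio (KU25 over N2, prior of 0.5 reads) of every gene with reads in the 3 families, the 5 lists of companion genes and the 7 lists of tissue markers, with 1 point per gene and a black bar at the median. The medians of the families, between 0.8 and 0.91, lie near those of the intestine markers at 0.83 and the neuron markers at 0.96. They lie below those of body wall muscle at 1.25, pharynx at 1.5, export transporters at 1.57 and sperm markers at 4.12. Medians lower than those of the families are dehydrogenases at 0.58, P450 partners at 0.52 and regulators at 0.11. Below 0 are hypodermis at -0.3, the mixed list of glutathione supply and other transferases at -0.4 and oogenic markers at -0.85. The 3 family medians fall below 0 with the scaling on somatic markers.

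None of the 5 genes at the level that work with the P450s was called, beside 17.6% of all genes at the level called higher and 1.75% lower. With so few genes this count says little about the list. Of the 9 partner genes, 7 had reads, 5 were at the level and the median log2 ratio was 0.52 over the 7 with reads and 0.04 over the 5 at the level. With the scaling on somatic markers the median over the 7 was -0.67. emb-8, the reductase that passes electrons to P450s, had 1649 reads in KU25 and 1770 in N2 (1.03, 0.963 to 1.1), and the cytochrome b5 gene cytb-5.2 had 387 and 427 (1, 0.871 to 1.15). The other cytochrome b5 gene, cytb-5.1, had 284 reads in KU25 and 219 in N2 (1.43, 1.2 to 1.72). Among flavin-containing monooxygenases, which oxidise in parallel with the P450s, fmo-5 had 64 reads in KU25 and 43 in N2 (1.65, 1.1 to 2.48) and fmo-4 had 101 and 123 (0.908, 0.691 to 1.19). daf-9, a hormone-making P450 without a cyp name, and fmo-2 were not analysed here.

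In the mixed list of glutathione supply and other transferases, 9 of 11 genes had a lower CPM in KU25. Over all genes with reads, 4344 of 8730 did. The list, called the glutathione genes for short, also holds msra-1, ggtb-1 and glrx genes. Of its 15 genes, 11 had reads, 6 were at the level and none was called, with a median log2 ratio of -0.4. Among all genes at the level 17.6% were higher and 1.75% lower, so with 6 genes the lack of a call says little. Intervals of the list genes were below 1 for 5 and above it for 1, beside 33% and 26.3% of all genes. gcs-1, the glutamate-cysteine ligase that sets the rate of glutathione synthesis and a known SKN-1 target, had 753 reads in KU25 and 1112 in N2 and was 1.34-fold lower (1.22 to 1.47). gss-1, the glutathione synthetase gene, had 503 reads in KU25 and 849 in N2 (1.53-fold lower, 1.37 to 1.71). The glutathione reductase gene gsr-1 had 7 reads in KU25 and 21 in N2 (2.71-fold lower, 1.11 to 7.55), on counts under the level. They covered 4.22% of its coding sequence in KU25 and 6.12% in N2, so the fold rests on a small part of the gene. gstk-2, a kappa class transferase outside the gst names, had 29 reads in KU25 and 14 in N2 (2.29, 1.17 to 4.69). The 6 list genes at the level had a median of -0.41, and all genes at the level had -0.33.

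Of the 20 regulators, 16 had reads, 6 were at the level and none was called. At that level 17.6% of all genes were higher and 1.75% lower, so with 6 genes the lack of a call says little. skn-1 had 386 reads in KU25 and 407 in N2, a ratio of 1.05 whose interval (0.91 to 1.21) includes 1. Its most covered sequence stood at only 2.25 RPKM in KU25 and 1.3 RPKM in N2, with 26.8% and 15.2% covered. Most of the summed skn-1 reads thus came from other isoform sequences, none better covered, so the ratio may rest on a small part of the gene. The skn-1 repressor gene wdr-23 had 11 reads in each library. sek-1, the kinase gene directly upstream of PMK-1, had 135 reads in KU25 and 102 in N2 (1.46, 1.12 to 1.91). The heat shock factor gene hsf-1 had 728 reads in KU25 and 1233 in N2 (1.53-fold lower, 1.4 to 1.68), and brap-2, whose loss in the worm activates gst-4, had 354 and 606 (1.55-fold lower, 1.36 to 1.77). The nuclear receptor gene nhr-86 had 309 reads in KU25 and 380 in N2 (0.899, 0.771 to 1.05), and daf-16 had 52 and 45 (1.28, 0.841 to 1.95). nhr-114 had 25 reads in KU25 and 24 in N2, elt-2 had 15 and 24, hif-1 had 13 and 10, and mdt-15 had 10 and 14. For wdr-23 and mdt-15, reads covered at most 5.34% of the most covered coding sequence in either library, so their counts rest on a small part of it. nhr-8, aha-1, ahr-1, daf-12 and pha-4 had at most 4 reads in either library. pmk-1, nsy-1, nhr-49 and nhr-176 were not analysed here.

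Among export transporters of the P-glycoprotein and multidrug resistance families, 4 genes had reads, 3 were at the level and 2 were higher. pgp-2 had 579 reads in KU25 and 283 in N2 (2.26, 1.96 to 2.62), and pgp-14 had 61 and 17 (3.97, 2.29 to 7.25). mrp-2 had 60 reads in KU25 and 53 in N2 (1.25, 0.851 to 1.85), and mrp-1 had 6 and 0. Of 30 short-chain and aldehyde dehydrogenase genes, which oxidise or reduce carbonyl compounds, 17 were at the level, 4 were higher and none lower, where 17.6% and 1.75% of all genes at the level were. dhs-3, which encodes a lipid droplet protein of the intestine, had 68 reads in KU25 and 22 in N2 (3.42, 2.09 to 5.81), and dhs-14 had 140 and 51 (3.04, 2.19 to 4.27). alh-12 had 167 reads in KU25 and 67 in N2 (2.76, 2.06 to 3.72), and dhs-9 had 609 and 322 (2.09, 1.82 to 2.4). Reads covered 15.5% of the alh-12 coding sequence in KU25 and 14.8% in N2. For the most covered dhs-3 sequence the shares were 17.2% and 17%. alh-8, the gene of this list with the most reads, had 11006 reads in KU25 and 6494 in N2 (1.87, 1.82 to 1.93). With the scaling on somatic markers the higher calls of both lists were 0.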

How the data were processed

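Per the file headers, the authors deposited, for each coding sequence, counts of reads with a unique match, the coding length, the percent of that length covered by reads, and RPKM. The deposited RPKM matched the counts, length and library total within a relative error of 2.8e-08. Per the labels' protocols, oligo(dT)-selected mRNA was reverse transcribed from random hexamers and read on an Illumina sequencer. Which aligner, build and annotation were used is not given in the sources used here. IDs were matched by sequence name to the WBcel235 annotation (9383 of 9430 IDs), for names, chromosomes and neighbours only, isoform letters were dropped and reads summed, and each of the 72 members had 1 ID. An unlisted ID was taken as 0 reads, which was not tested, and a count of 0 allows 3 reads (0.574 CPM in KU25 and 0.519 CPM in N2).

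Ratios have exact conditional binomial (Clopper-Pearson) intervals, which treat reads as independent molecules and cover counting error only. Level intervals in RPKM are exact Poisson intervals. Calls, the floor and the log2 prior are as given with the results. The call rule was tested on simulated data that held counting error only, so variation between worms or libraries was not part of that test. TMM factors came from edgeR 4.0.16, and other steps used Python 3.11.15 and scipy 1.17.1. The members, gene lists and scalings were chosen with earlier results of these data known. In each family the named genes were the 5 with the highest RPKM in each library, all called genes, the 4 largest and 4 smallest ratios at the level and a list of well-known genes; other members are given by range or value. In the companion lists they were up to 4 with the largest change and all regulators, and further genes were added after their values were seen. Promoter and protein sequences were not used here, so the planned motif and protein identity steps were not run.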

Additional observations from a re-analysis of the deposited data

How the results depend on the processing

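No paired analysis was possible because each genotype has 1 library, and for the same reason none could be left out. The scaling on somatic markers changed most. With it 5.91% of all genes at the level were higher and 68.5% lower. The calls were 0 higher and 2 lower for cyp, 0 and 3 for ugt, and 1 higher for gst; the medians were -0.29, -0.34 and -0.39, and the pooled ratios 0.543, 0.624 and 0.564. The companion lists then had 3 lower among P450 partners (median -0.67), 6 among glutathione genes (-1.59), 4 among regulators (-1.08) and 5 among dehydrogenases (-0.61), with 0 higher among transporters (0.38) and dehydrogenases, and cyp-29A2 turned to -0.14. TMM factors gave pooled ratios of 1.32 for cyp and 1.37 for gst, median-of-ratios factors 1.33 for gst, and the pooled ratio was 1.89 without cyp-31A2 and 1.61 without gst-1.

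At a fold of 1.5, calls were 9 higher and 1 lower for cyp, 2 lower for ugt, 10 higher for gst, 1 higher among partners, 1 lower among glutathione genes, 2 lower among regulators, and 8 higher and 1 lower among dehydrogenases; over all genes 25% were then higher and 27.6% lower. With no level filter they were 7 higher for ugt, 1 lower for gst, 1 higher and 1 lower among glutathione genes, and 7 higher among dehydrogenases (all genes 18.3% higher and 1.88% lower). At 200 reads (all genes 11.2% and 0.924%) they were 3 higher of 6 for cyp, 0 higher and 0 lower of 1 for ugt, 0 higher of 4 for gst, and 1 higher each among transporters and dehydrogenases, and at 50% coverage 1 and 2 higher in these lists. With 50 reads required in N2, an alternative chosen after seeing the data, calls were 2 higher for ugt and 1 for gst. Fewer genes tested is part of each stricter filter. Depth limits many members: for 32 of 72 the interval includes 1.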

Other observations

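ugt-44 lies on chromosome IV, as does pmk-1, with 569 protein-coding genes between them out of 3281 annotated on that chromosome. Of the 10 protein-coding genes on each side of ugt-44, 7 had reads, and none of them was called lower. Genes under 50 reads could not be called, and 1.75% of all genes at that level were lower. With so few genes this count says nothing about the region. The carboxypeptidase gene egl-21, 2 genes away, had 581 reads in KU25 and 238 in N2 and was 2.7-fold higher (2.32 to 3.15). ced-5, which acts in the engulfment of dying cells, had 1072 reads in KU25 and 1922 in N2 (0.617, 0.572 to 0.665), and F01D4.5 had 137 and 253 (0.599, 0.483 to 0.74). F13B12.1 had 1549 reads in KU25 and 2388 in N2 (0.717, 0.673 to 0.765). The intervals of ced-5, F01D4.5 and F13B12.1 lay wholly below 1, short of the 2-fold limit. ins-1, C02F4.4 and cal-4 had at most 8 reads in either library, so they could not be called.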
